A study of Mus musculus with 9 samples.

Results

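The genes described here make, sense, move and store cholesterol and fatty acids. A list of 39 such genes was matched to probe sets of Affymetrix mouse arrays that carry 1 gene symbol, and each gene was read from its brightest probe set over all 9 arrays. Of the 39 genes, 38 had such a probe set, among 18193 genes in all, and Nr1h2, the gene of a nuclear receptor for oxysterols (LXR beta), was not analysed here. The 38 comprise 16 enzymes of cholesterol synthesis, 5 genes of sterol sensing, 5 of intracellular sterol transport and ester hydrolysis, 3 of LXR and sterol efflux, and 9 of fatty acid synthesis.

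The arrays carried RNA from cultured mouse granulosa cells, the somatic cells that surround the oocyte in the follicle, in 3 groups of 3 arrays, each group infected with another adenovirus. The WNT4 group was infected to overexpress the secreted ligand WNT4, the Cre group to express Cre recombinase, and the GFP group, the control, to express enhanced GFP. Cells of each group came from mice aged 20 to 26 days that had been given equine chorionic gonadotrophin 48 h before, a hormone that drives follicle growth. They attached overnight in medium with 1% fetal bovine serum, and infection then lasted 24 h in serum-free medium at a multiplicity of about 50. The serum-free medium was common to the 3 groups. The mice are described as of various genotypes, the Cre virus recombined floxed alleles of Ctnnb1 (beta-catenin), and no source used here ties a genotype to an array. Groups are therefore named as labelled. The replicates are called biological without a word on whether each had its own animals or culture, so a p-value here sets differences against spread that may be technical.

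Cholesterol is built from acetyl-CoA through mevalonate, squalene and lanosterol, and steroid-producing cells use it as the precursor of progesterone and oestrogens. When sterols in the endoplasmic reticulum are low, SCAP escorts the SREBP transcription factors to the Golgi for cleavage, and INSIG proteins hold them back when sterols are plentiful. SREBP2 acts mainly on genes of cholesterol synthesis and uptake, and SREBP1 mainly on genes of fatty acid synthesis, although their targets overlap. LXR receptors respond to oxysterols, raise the efflux transporters ABCA1 and ABCG1, and also act on Srebf1.

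The deposited values are log2 levels made with RMA, so a difference of 1 is a doubling, and levels of different probe sets are not compared. They ran from 3.46 to 15.28, with array medians of 5.44 to 5.54. Array WNT4 1 had the lowest median but the highest 75th percentile. Granulosa genes were bright on the 9 arrays, with Inha at 12.87 to 13.96 and Foxl2 at 10.09 to 10.70, whereas Amh was dim at 5.84 to 6.23. Of 6 adipocyte genes, Adipoq, Lep, Cidec and Fabp4 were dim, with Adipoq at 4.02 to 4.26, while Retn lay at 6.34 to 6.86 and Pparg, which granulosa cells also express, at 8.79 to 9.79. A trio of arrays stood apart from the others of their groups. Array WNT4 1 had the highest median of the 12 oocyte genes (1.60 above the GFP mean), and arrays WNT4 3 and Cre 3 had the highest medians of the 19 hypoxia genes (2.98 and 2.51). Many differences below are also given without one or more of these arrays.

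No gene of the group passed the test in any of the 3 comparisons. The test was limma over all 45037 probe sets with Benjamini-Hochberg adjustment, called at an adjusted p under 0.05. It called 0 of 38 genes in WNT4 against GFP, where 0.0155% of all probe sets were called. It called 0 of 38 in Cre against GFP and 0 of 38 in WNT4 against Cre, with 0.0% of all probe sets called in each. The lowest adjusted p of a member was 0.178 in WNT4 against GFP (Me1), 1.0 in Cre against GFP and 0.773 in WNT4 against Cre. At an unadjusted p under 0.05 the numbers were 10, 0 and 5 of 38, against 13.0%, 2.23% and 6.23% of all probe sets. In WNT4 against GFP 9 of the 10 were higher and 1 lower, where 20.8% and 4.23% of the bright genes defined next were higher and lower. An exact permutation test of a single gene between 3 and 3 arrays cannot go below p = 0.1.

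As the 38 are mostly bright, they were also set beside the 10556 genes with a mean log2 level of at least 6. In WNT4 against GFP, 26.3% of the members and 25.0% of those genes had an unadjusted p under 0.05. The shares were 0.0% and 2.97% in Cre against GFP, and 13.2% and 12.9% in WNT4 against Cre. The members' share was thus near that of bright genes with WNT4. The median difference of the 38 was 0.36 in WNT4 against GFP, where bright genes had 0.16 and all genes 0.02. It was 0.03 in Cre against GFP, with 0.02 for bright genes, and 0.31 in WNT4 against Cre, with 0.13. After quantile normalization the 38 had a median of 0.11 in WNT4 against GFP, and 27 of 38 were above 0. With the deposited values 34 of 38 members had a difference above 0 there, as had 69.5% of bright genes. The 3 comparisons share arrays, so these counts are not independent of each other.

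**Figure D1:**
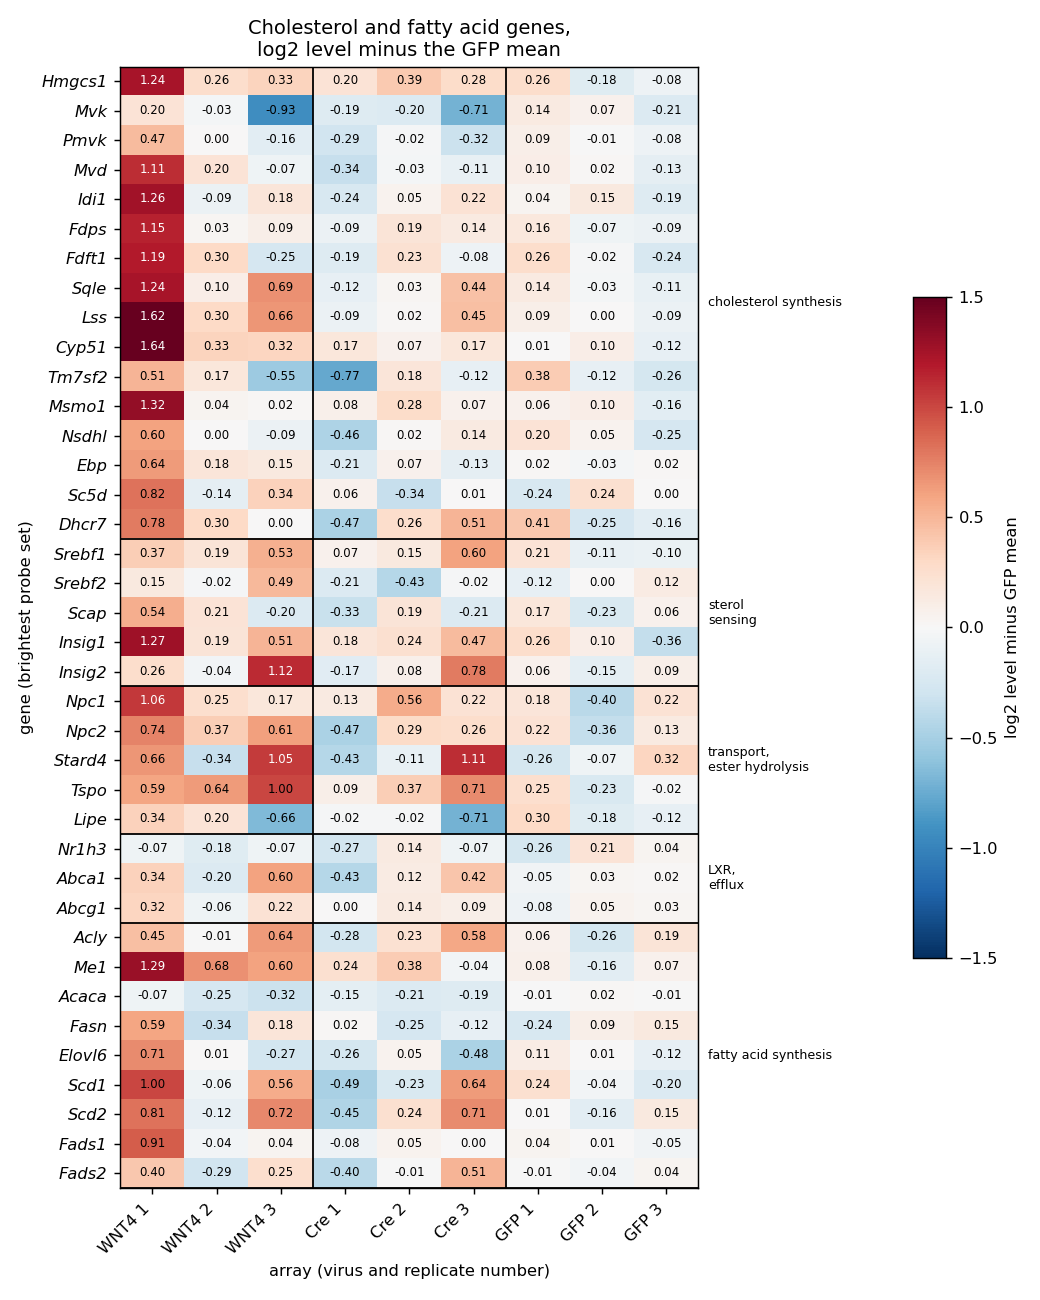
Log2 level of each of the 38 genes on each array minus the mean of the 3 GFP arrays (colour and printed value), with genes in rows by role and arrays in columns by virus. The left column, WNT4 1, holds most of the high values of the cholesterol synthesis block, and arrays WNT4 3 and Cre 3 are alike in Insig2, Stard4 and Scd2.

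The enzymes of cholesterol synthesis were high on 1 array, WNT4 1. All 16 had their highest level of the 9 arrays there. Over the 38 members that held for 28 (73.7%), against 38.5% of bright genes and 25.8% of all genes. The median of the 16 lay 1.13 above the GFP mean on WNT4 1, but 0.14 and 0.05 above it on WNT4 2 and WNT4 3. On the Cre arrays the median was -0.19, 0.06 and 0.10, and on the GFP arrays 0.12, -0.01 and -0.12.

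Hmgcs1, whose product condenses acetyl-CoA units ahead of the HMG-CoA reductase step, had levels of 13.99, 13.01 and 13.07 on the WNT4 arrays, 12.94, 13.14 and 13.03 on the Cre arrays, and 13.01, 12.57 and 12.67 on the GFP arrays. On this probe set only WNT4 1 stood clear, and WNT4 2 equalled GFP 1 to 2 decimals. On the other 3 bright probe sets of the gene no WNT4 array overlapped a GFP array, for example 12.72, 11.61 and 11.70 against 11.31 to 11.38. On the probe set of this example the Cre arrays (11.79, 11.91 and 11.40) also all exceeded the GFP arrays, as on another of the 3. The 4 bright probe sets gave 0.29 to 0.39 in Cre against GFP. The difference was 0.61 ± 0.25 (SE) in WNT4 against GFP (limma, adjusted p = 0.349), and the 4 bright probe sets gave 0.61 to 0.68. Without WNT4 1 the difference was 0.29, and after quantile normalization 0.18.

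Sqle, squalene epoxidase, the first oxygenation of the sterol branch, had 11.30, 10.16 and 10.75 on the WNT4 arrays, 9.95, 10.09 and 10.50 on the Cre arrays, and 10.20, 10.03 and 9.95 on the GFP arrays. WNT4 1 and WNT4 3 lay above every GFP array, while WNT4 2 lay among them. The difference was 0.68 ± 0.26 in WNT4 against GFP (limma, adjusted p = 0.332) and 0.12 ± 0.26 in Cre against GFP. It was 0.40 in WNT4 against GFP without WNT4 1.

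Lss, lanosterol synthase, which closes the squalene chain into the first sterol, had 10.22, 8.91 and 9.27 on the WNT4 arrays, 8.52, 8.63 and 9.06 on the Cre arrays, and 8.70, 8.61 and 8.52 on the GFP arrays. All WNT4 levels exceeded all GFP levels, and the Cre arrays overlapped both groups. The WNT4 mean was 0.86 ± 0.30 above GFP, or 1.81-fold, the highest difference of the 38 (limma, adjusted p = 0.290), and 0.73 ± 0.30 above Cre (adjusted p = 0.777). Without WNT4 1 the difference from GFP was 0.48. A second, dimmer probe set gave 0.90 from GFP, but there WNT4 2 lay among the GFP arrays. It gave 0.31 from Cre, and 0.60 in Cre against GFP, where the brightest gave 0.13.

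Cyp51, the lanosterol demethylase, showed a similar array pattern, with 10.31, 9.01 and 8.99 on the WNT4 arrays, 8.84, 8.75 and 8.85 on the Cre arrays, and 8.68, 8.78 and 8.56 on the GFP arrays. The WNT4 levels did not overlap those of either other group. The difference from GFP was 0.76 ± 0.31 (limma, adjusted p = 0.349), and 0.32 without WNT4 1. A second bright probe set had 9.74, 7.63 and 8.29 on the WNT4 arrays, which overlapped both groups, and gave 0.50 from GFP and 0.11 from Cre, where the first gave 0.62 from Cre.

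Ebp, the sterol isomerase, had 10.61, 10.14 and 10.12 on the WNT4 arrays, 9.75, 10.03 and 9.83 on the Cre arrays, and 9.98, 9.93 and 9.98 on the GFP arrays. Here too the WNT4 arrays were separate from the rest. The difference was 0.33 ± 0.14 from GFP (limma, adjusted p = 0.376) and 0.42 ± 0.14 from Cre (adjusted p = 0.773), and from GFP it was 0.17 without WNT4 1 and 0.08 after quantile normalization.

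The other 11 enzymes had differences between -0.25 (Mvk, mevalonate kinase) and 0.46 (Msmo1, the sterol C4 oxidase) in WNT4 against GFP. For 6 of them, namely Mvd, Idi1, Fdps, Fdft1, Msmo1 and Dhcr7, which act at steps from mevalonate to the last reduction, the values lay between 0.36 and 0.46. Without WNT4 1 these 6 lay between 0.03 and 0.15. Pmvk, Tm7sf2, Nsdhl and Sc5d had 0.10, 0.04, 0.17 and 0.34 with all arrays, and -0.08, -0.19, -0.04 and 0.10 without WNT4 1. Mvk differed from these in its low arrays, at 7.50 on WNT4 3 and 7.72 on Cre 3 against 8.22 to 8.57 on the GFP arrays, and its difference was 0.08 without both. The 16 enzymes ran in Cre against GFP from -0.37 to 0.29 with a median of 0.00, and 8 of 16 were above 0.

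**Figure D2:**
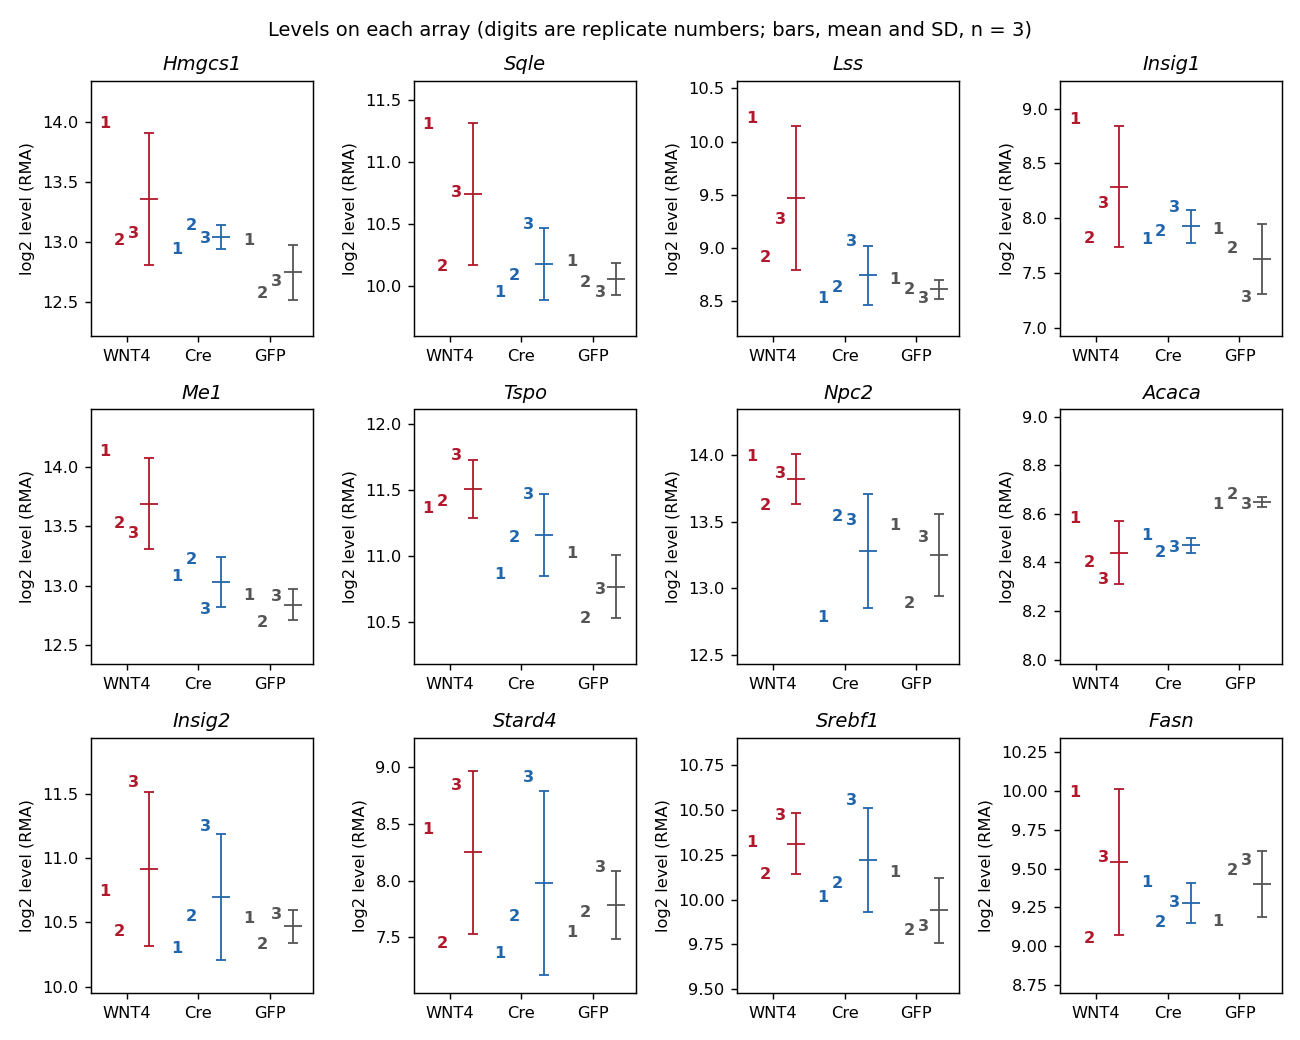
Log2 level of 12 genes on each array, with the replicate number printed at the level and a bar for the mean and SD (n = 3) of each virus group. Replicate 1 is the highest WNT4 array for Hmgcs1, Sqle, Lss and Insig1, replicate 3 is the highest WNT4 and Cre array for Tspo, Insig2, Stard4 and Srebf1, and the GFP arrays of Acaca lie above all others.

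Other values moved with array WNT4 1. The count of raised oocyte genes did not single out this array. All 12 exceeded their GFP mean both here and on WNT4 2, and 11 did so on Cre 1 and GFP 2. Their median relative to GFP was 1.60 on WNT4 1, 1.0 on Cre 1 and 0.65 on GFP 2. The summed linear level of the oocyte genes was 6140 on WNT4 1, 2092 and 1799 on the other WNT4 arrays, 1600 to 3992 on the Cre arrays and 1412 to 3000 on the GFP arrays. Of 11 theca and stroma genes 7 were above the GFP mean on WNT4 1, where the number ran from 1 (WNT4 2 and GFP 1) to 9 (GFP 2 and GFP 3) over the arrays. Dcn was at 9.50 on WNT4 1 against 6.51 and 6.45 on the other WNT4 arrays. Dcn, Lum (7.33), Pdgfra (8.16), Col3a1 (10.23), Cyp17a1 (5.86) and Ptch1 had their highest level of the 9 arrays on WNT4 1. Acta2 (10.81), Tagln (8.53) and Col1a1 (5.73) had their lowest level of the 9 arrays there. The summed level of the 11, 7560 on WNT4 1, lay within the 4635 to 13265 of the WNT4 group and the 5505 to 11075 of the GFP group. Of 14 granulosa genes 9 were above the GFP mean on that array, with a summed level of 60296 there, 45339 and 48420 on the other WNT4 arrays, 40187 to 54290 on the Cre arrays and 48145 to 52937 on the GFP arrays. The median of 17 unfolded protein response genes lay 1.93, 0.47 and 1.39 above the GFP mean on the WNT4 arrays and -0.01 to 0.24 on the Cre arrays. The 3' minus 5' log2 signal of the Gapdh control was 2.17 on WNT4 1, 1.36 and 1.88 on the other WNT4 arrays, 0.95 to 1.86 on the Cre arrays and 1.77 to 1.80 on the GFP arrays. The part of each of these in the sterol gene levels was not tested, and in such bulk samples fewer cells of a type and less RNA per cell cannot be told apart.

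Promoters are shown for 4 genes with the array pattern just described and for Fasn of the fatty acid arm. Fasn, too, was highest on the array that set this pattern. They come from RefSeq on GRCm38.p6, run 5' to 3' on the gene's strand and cover 250 bases before to 50 after the start. Of the 39 genes 29 had an entry in this table. Capitals mark CCAAT boxes (CCAAT, or ATTGG on the other strand), bound by NF-Y, a partner of SREBP at sterol genes, and the sterol regulatory element TCACNCCAC, a form of the SREBP site.
Hmgcs1: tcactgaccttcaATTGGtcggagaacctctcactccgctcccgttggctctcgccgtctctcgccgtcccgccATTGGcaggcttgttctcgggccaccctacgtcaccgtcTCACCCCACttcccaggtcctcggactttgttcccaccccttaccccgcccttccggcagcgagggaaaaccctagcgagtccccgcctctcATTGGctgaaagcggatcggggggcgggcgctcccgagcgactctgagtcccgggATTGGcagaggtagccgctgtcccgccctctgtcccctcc
Lss: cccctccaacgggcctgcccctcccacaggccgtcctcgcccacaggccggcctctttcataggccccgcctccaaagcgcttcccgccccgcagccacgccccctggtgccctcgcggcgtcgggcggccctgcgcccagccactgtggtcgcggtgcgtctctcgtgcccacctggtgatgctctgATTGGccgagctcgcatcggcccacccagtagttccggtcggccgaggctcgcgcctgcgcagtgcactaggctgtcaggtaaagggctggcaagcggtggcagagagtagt
Cyp51: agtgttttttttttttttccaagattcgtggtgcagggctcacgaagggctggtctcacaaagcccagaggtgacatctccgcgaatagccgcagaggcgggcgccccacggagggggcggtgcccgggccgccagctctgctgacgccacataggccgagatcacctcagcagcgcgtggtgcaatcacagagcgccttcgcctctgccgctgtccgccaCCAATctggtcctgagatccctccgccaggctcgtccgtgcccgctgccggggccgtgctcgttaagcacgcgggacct
Insig1: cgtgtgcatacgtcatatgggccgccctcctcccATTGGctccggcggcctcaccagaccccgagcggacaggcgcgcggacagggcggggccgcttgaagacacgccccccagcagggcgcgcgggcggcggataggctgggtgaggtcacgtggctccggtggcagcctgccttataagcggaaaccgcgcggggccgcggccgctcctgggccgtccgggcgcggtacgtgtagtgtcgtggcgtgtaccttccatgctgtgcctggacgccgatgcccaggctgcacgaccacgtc
Fasn: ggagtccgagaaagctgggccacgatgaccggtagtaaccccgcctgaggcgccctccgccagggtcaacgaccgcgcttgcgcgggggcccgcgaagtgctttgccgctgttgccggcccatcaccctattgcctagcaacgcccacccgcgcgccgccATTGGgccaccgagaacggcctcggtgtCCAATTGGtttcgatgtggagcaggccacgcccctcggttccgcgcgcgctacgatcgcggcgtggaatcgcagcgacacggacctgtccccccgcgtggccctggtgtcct

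The Hmgcs1 window (chr13:119690101-119690400, plus strand) held 4 CCAAT boxes and 1 sterol regulatory element, whose first base lay at -137. The Lss window (chr10:76531355-76531654, plus strand) held a CCAAT box at -62, that of Cyp51 (chr5:4104648-4104947, minus strand) held 1 at -29, and that of Insig1 (chr5:28071162-28071461, plus strand) held 1 at -216. The Fasn window (chr11:120824498-120824797, minus strand) held 3 CCAAT boxes, of which a pair overlapped at -62 and -59. A CCAAT box on either strand was found in 13 of 13 cholesterol synthesis genes with a promoter entry and in 3 of 6 fatty acid genes (Acly, Me1 and Fasn). It was found in 21 of 29 members (72.4%), 41.1% of all 27025 genes in the table and 42.6% of 8593 bright genes. The sterol regulatory element as spelled was in Hmgcs1 only among the 29, and in 1.44% of all genes. The E-box CACGTG, either strand, was in 6 of 29 members (20.7%), 8.09% of all genes and 12.0% of bright genes. A gene with several starts counted once if any window held the motif. These matches describe letters in short windows and nothing was measured about binding.

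Among the sterol sensors, Insig1, an SREBP target that retains SCAP in the endoplasmic reticulum, followed the enzymes. It had 8.90, 7.82 and 8.14 on the WNT4 arrays, 7.81, 7.88 and 8.10 on the Cre arrays, and 7.90, 7.73 and 7.28 on the GFP arrays. WNT4 1 was highest and GFP 3 lowest. The difference was 0.65 ± 0.27 in WNT4 against GFP (limma, adjusted p = 0.350) and 0.30 ± 0.27 in Cre against GFP, and 0.35 in WNT4 against GFP without WNT4 1.

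Insig2, a second retention protein that is known to be less tied to SREBP, had another array order. It had 10.74, 10.43 and 11.59 on the WNT4 arrays, 10.30, 10.55 and 11.25 on the Cre arrays, and 10.53, 10.33 and 10.56 on the GFP arrays. WNT4 3 and Cre 3 stood above the other 7. The difference in WNT4 against GFP was 0.45 ± 0.31, and 0.11 without WNT4 3 and Cre 3.

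Srebf1, the gene of SREBP1, had 10.32, 10.14 and 10.47 on the WNT4 arrays, 10.01, 10.09 and 10.55 on the Cre arrays, and 10.15, 9.83 and 9.85 on the GFP arrays. WNT4 2 lay just below GFP 1, so the groups overlapped. The difference was 0.36 ± 0.16 in WNT4 against GFP (limma, adjusted p = 0.395) and 0.27 ± 0.16 in Cre against GFP. Leaving out WNT4 1 left the difference in WNT4 against GFP at 0.36. It was 0.28 without WNT4 3 and Cre 3, and 0.12 after quantile normalization. The Cre difference from GFP was 0.11 without Cre 3.

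Srebf2, the gene of SREBP2, had 7.86, 7.69 and 8.20 on the WNT4 arrays, 7.50, 7.28 and 7.69 on the Cre arrays, and 7.59, 7.71 and 7.83 on the GFP arrays. The Cre arrays held the 2 lowest levels. The WNT4 mean was 0.42 ± 0.15 above Cre (limma, adjusted p = 0.773), 0.20 ± 0.15 above GFP, and the Cre mean was -0.22 ± 0.15 from GFP. A second bright probe set gave 0.07 in WNT4 against Cre and 0.14 in Cre against GFP, so the probe sets disagreed. Without WNT4 3 and Cre 3 the difference from GFP was 0.06. Scap had 0.18 ± 0.21 in WNT4 against GFP, and 0.01 without WNT4 1.

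Of the transport genes, Tspo, an outer mitochondrial membrane protein that binds cholesterol, had the most even separation. It had 11.36, 11.41 and 11.76 on the WNT4 arrays, 10.86, 11.14 and 11.47 on the Cre arrays, and 11.02, 10.53 and 10.75 on the GFP arrays. Each WNT4 array exceeded each GFP array, and the Cre arrays lay between and across them. The difference was 0.74 ± 0.19, or 1.67-fold, in WNT4 against GFP (limma, adjusted p = 0.206). It was 0.39 ± 0.19 in Cre against GFP (adjusted p = 1.0) and 0.35 ± 0.19 in WNT4 against Cre. The 3 bright probe sets gave 0.64 to 0.77 in WNT4 against GFP and 0.39 to 0.51 in Cre against GFP. On the second of them the Cre arrays (10.82, 10.99 and 11.51) all lay above the GFP arrays (10.42 to 10.74). On the brightest, the WNT4 difference from GFP was 0.82 without WNT4 1 and 0.62 without WNT4 3 and Cre 3. After quantile normalization it was 0.43 from GFP and 0.11 from Cre.

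Npc2, the lysosomal protein that hands cholesterol to NPC1, had 13.99, 13.62 and 13.86 on the WNT4 arrays, 12.78, 13.54 and 13.51 on the Cre arrays, and 13.47, 12.89 and 13.38 on the GFP arrays. On this probe set WNT4 levels overlapped neither other group, and Cre and GFP each had 1 low array. On a second bright probe set WNT4 3 (13.21) lay below Cre 2 (13.26), though all WNT4 arrays exceeded the GFP arrays. On the dimmest bright probe set WNT4 1 (6.93) lay below GFP 3 (6.98). The difference on the brightest was 0.57 ± 0.23 from GFP (limma, adjusted p = 0.350) and 0.55 ± 0.23 from Cre (adjusted p = 0.791). It was 0.49 from GFP without WNT4 1 but 0.09 after quantile normalization.

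Npc1, the lysosomal membrane partner, had 8.26, 7.45 and 7.37 on the WNT4 arrays, 7.33, 7.75 and 7.42 on the Cre arrays, and 7.38, 6.80 and 7.42 on the GFP arrays. WNT4 1 was high, GFP 2 was low, and the groups overlapped. The difference was 0.49 ± 0.26 in WNT4 against GFP, and 0.21 without WNT4 1.

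Stard4, a cytosolic sterol carrier induced by SREBP2, had 8.45, 7.45 and 8.84 on the WNT4 arrays, 7.36, 7.68 and 8.91 on the Cre arrays, and 7.54, 7.72 and 8.12 on the GFP arrays. On this probe set replicate 3 was the highest array in each group, and WNT4 2 lay below the GFP arrays. A second bright probe set had its highest level on WNT4 1 (8.20). There WNT4 3 had 8.13 and Cre 3 had 7.56, against 7.11 to 7.43 on the GFP arrays. The difference on the brightest was 0.46 ± 0.44 in WNT4 against GFP, and 0.16 without WNT4 3 and Cre 3.

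Lipe, hormone-sensitive lipase, which frees cholesterol from esters in steroidogenic cells, had 6.64, 6.51 and 5.65 on the WNT4 arrays, 6.29, 6.29 and 5.60 on the Cre arrays, and 6.61, 6.13 and 6.18 on the GFP arrays. WNT4 3 and Cre 3 were the 2 lowest. The difference in WNT4 against GFP was -0.04 ± 0.29, and 0.27 without WNT4 3 and Cre 3.

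On the efflux side, Abca1, the transporter that loads cholesterol onto apolipoprotein A-I, had 8.56, 8.02 and 8.82 on the WNT4 arrays, 7.79, 8.33 and 8.63 on the Cre arrays, and 8.17, 8.25 and 8.24 on the GFP arrays. The GFP arrays were close together and lay inside the range of both other groups. The difference was 0.25 ± 0.24 in WNT4 against GFP, or 0.07 without WNT4 3 and Cre 3, and 0.03 ± 0.24 in Cre against GFP. Abcg1, the second efflux transporter, had 0.16 ± 0.11 in WNT4 against GFP. Nr1h3, the gene of LXR alpha, was dim, with means of 5.68, 5.71 and 5.78 in the WNT4, Cre and GFP groups, and had -0.11 ± 0.14.

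Me1, the cytosolic malic enzyme that supplies NADPH for lipid synthesis, had the lowest p of the 38 in WNT4 against GFP. It had 14.13, 13.52 and 13.44 on the WNT4 arrays, 13.08, 13.22 and 12.80 on the Cre arrays, and 12.92, 12.69 and 12.91 on the GFP arrays. WNT4 levels lay above all levels of the other groups, which overlapped each other. The difference was 0.85 ± 0.19 from GFP, or 1.81-fold (limma, adjusted p = 0.178), and 0.66 ± 0.19 from Cre (adjusted p = 0.773). The Cre mean was 0.19 ± 0.19 above GFP. On the second probe set the Cre arrays (12.90, 13.18 and 12.89) all lay above the GFP arrays (12.57 to 12.82), with a difference of 0.26 ± 0.17. In WNT4 against GFP the second probe set gave 0.80 and the brightest 0.85, and without WNT4 1 the value of the brightest was 0.64. After quantile normalization it was 0.39 from GFP and 0.27 from Cre.

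Acaca, acetyl-CoA carboxylase, the committed step of fatty acid synthesis, was the 1 member whose WNT4 levels all lay below GFP. It had 8.58, 8.40 and 8.33 on the WNT4 arrays, 8.51, 8.44 and 8.46 on the Cre arrays, and 8.64, 8.68 and 8.64 on the GFP arrays. The Cre arrays too lay below the 3 GFP arrays, which spread by little. The difference was -0.22 ± 0.09 in WNT4 against GFP (limma, adjusted p = 0.353) and -0.18 ± 0.09 in Cre against GFP (adjusted p = 1.0).

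Fasn, fatty acid synthase, had 9.99, 9.05 and 9.57 on the WNT4 arrays, 9.41, 9.15 and 9.28 on the Cre arrays, and 9.16, 9.49 and 9.55 on the GFP arrays. The WNT4 group held both the highest and the lowest level of the 9. The difference was 0.14 ± 0.22 in WNT4 against GFP, and -0.08 without WNT4 1, after which the sign differed.

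Scd1, a stearoyl-CoA desaturase, had 9.90, 8.84 and 9.46 on the WNT4 arrays, 8.41, 8.67 and 9.55 on the Cre arrays, and 9.14, 8.86 and 8.70 on the GFP arrays. Scd2, its paralogue, had 13.44, 12.51 and 13.36 on the WNT4 arrays, 12.19, 12.87 and 13.35 on the Cre arrays, and 12.64, 12.48 and 12.79 on the GFP arrays. On these probe sets WNT4 1, WNT4 3 and Cre 3 were the 3 highest arrays, and WNT4 2 lay with the GFP arrays. A second bright probe set of Scd1 had 6.24 on WNT4 3 and 6.42 on Cre 3, against 6.23 to 6.42 on the GFP arrays. The dimmest bright probe set of Scd2 had 6.26 on WNT4 1, against 5.71 to 6.33 on the GFP arrays. On the brightest probe sets the differences in WNT4 against GFP were 0.50 ± 0.33 for Scd1 and 0.47 ± 0.32 for Scd2, and 0.25 and 0.30 without WNT4 1. The 3 bright probe sets of Scd2 ran from 0.12 to 0.47. The remaining fatty acid genes were Acly, ATP citrate lyase, at 0.36 ± 0.24, Elovl6, an elongase, at 0.15 ± 0.24, and the desaturases Fads1 and Fads2 at 0.30 ± 0.22 and 0.12 ± 0.24. Without WNT4 1 these were 0.31 for Acly, -0.13 for Elovl6, 0.00 for Fads1 and -0.02 for Fads2. Those values are from the brightest probe sets. With all arrays the bright probe sets ran from 0.36 to 0.67 for Acly, 0.15 to 0.49 for Elovl6 and 0.12 to 0.42 for Fads2.

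SREBP2 and SREBP1 targets were then set side by side, with the 16 enzymes and Stard4 as the SREBP2 list (17 genes) and the 9 fatty acid genes as the SREBP1 list. The median difference in WNT4 against GFP was 0.42 for SREBP2 targets and 0.30 for SREBP1 targets, 0.11 apart. In Cre against GFP the medians were 0.01 and -0.01, and in WNT4 against Cre 0.34 and 0.30. By array, the SREBP2 median was 1.11, 0.10 and 0.09 above the GFP mean on the WNT4 arrays, -0.19, 0.05 and 0.14 on the Cre arrays, and 0.10, -0.01 and -0.12 on the GFP arrays. The SREBP1 median was 0.71, -0.06 and 0.25 on the WNT4 arrays, -0.26, 0.05 and 0.00 on the Cre arrays, and 0.04, -0.04 and 0.04 on the GFP arrays. SREBP2 minus SREBP1 was thus 0.40, 0.16 and -0.16 on the WNT4 arrays, 0.06, 0.00 and 0.14 on the Cre arrays, and 0.06, 0.02 and -0.16 on the GFP arrays. WNT4 1, WNT4 2 and Cre 3 exceeded every GFP array in this difference, and WNT4 3 had the same value as GFP 3. The median of bright genes on the WNT4 arrays was 0.27, 0.07 and 0.13. Without WNT4 1 the medians in WNT4 against GFP were 0.06 for SREBP2 targets and 0.00 for SREBP1 targets. Without WNT4 3 and Cre 3 they were 0.59 and 0.34.

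**Figure D3:**
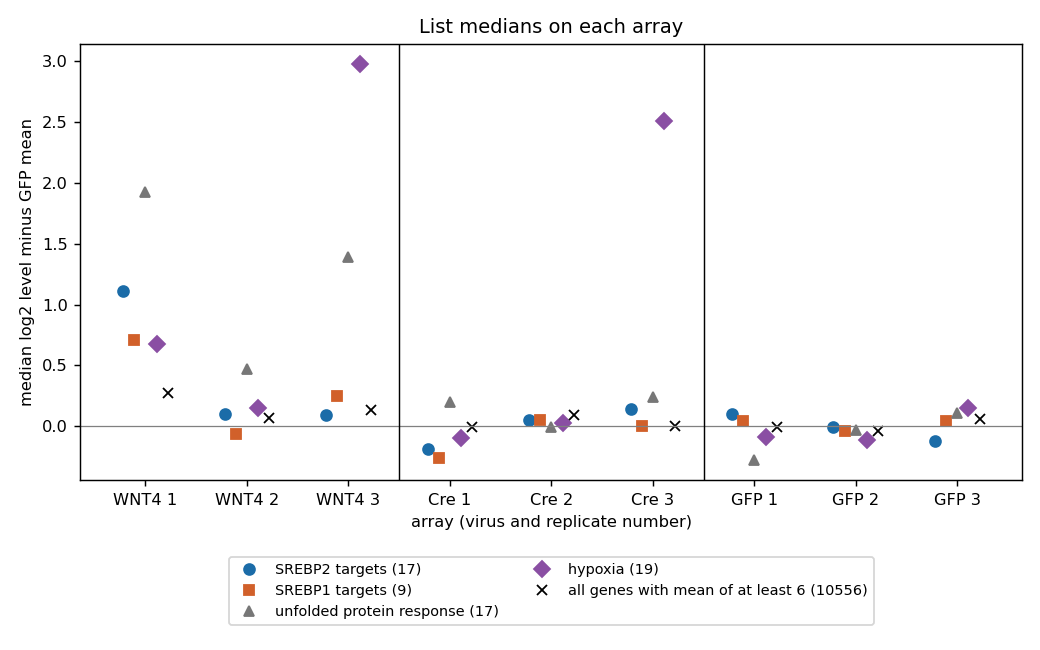
Median log2 level minus the GFP mean on each array for SREBP2 targets, SREBP1 targets, unfolded protein response genes, hypoxia genes and all genes with a mean of at least 6 (number of genes in the legend). SREBP2 targets reach 1.11 on WNT4 1 and lie between -0.19 and 0.14 on the other 8 arrays, while hypoxia genes reach 2.98 on WNT4 3 and 2.51 on Cre 3.

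On the brightest probe sets, WNT4 3 and Cre 3 were each the highest array of their group in 7 members (18.4%). That share was near the 20.7% of bright genes. The 7 were Srebf1, Srebf2, Insig2, Stard4, Tspo, Abca1 and Acly. The hypoxia gene median, relative to GFP, was 0.68, 0.15 and 2.98 on the WNT4 arrays and -0.10, 0.03 and 2.51 on the Cre arrays. Of 11 leukocyte genes 7 were above the GFP mean on WNT4 3, 7 on Cre 3 and 8 on GFP 3. Csf1r was highest on WNT4 3 and Cre 3, at 8.23 and 8.44 against 6.80 to 7.87 on the GFP arrays. Ptprc (5.68 and 5.69), Cd68 (7.71 and 7.77), Adgre1 and Cd14 also had their highest levels on these arrays. C1qa (5.28 and 5.39) and C1qb (4.79 and 4.85) were lowest there. Of these, Ptprc, C1qa and C1qb were dim, with means of 4.96, 5.51 and 5.23 over all arrays. The summed level of the 11 was 1835 on WNT4 3, 1923 on Cre 3 and 955 to 1790 on the GFP arrays. Their part in the levels of these 7 genes was not tested.

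**Figure D4:**
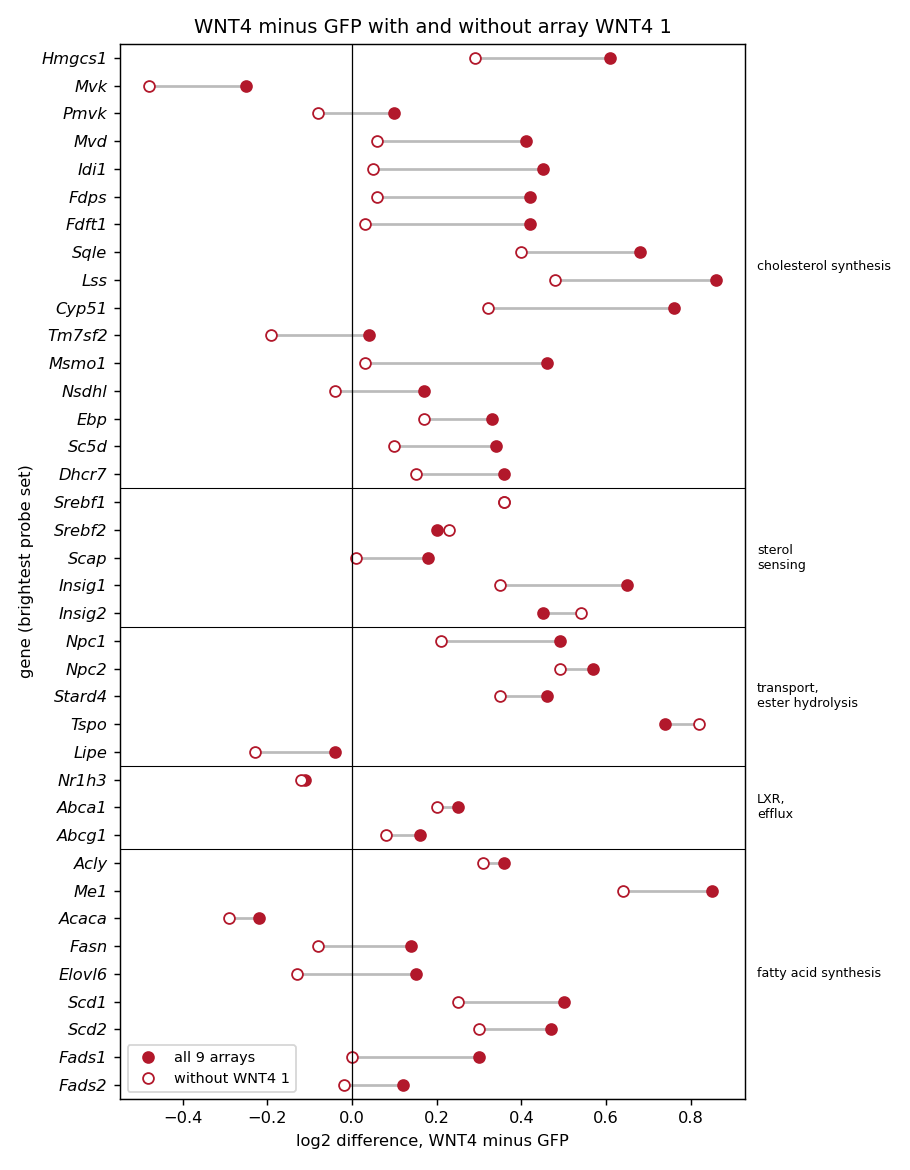
Log2 difference in WNT4 against GFP of each gene with all 9 arrays (filled) and without array WNT4 1 (open), by role. Most cholesterol synthesis genes move toward 0, to 0.03 to 0.06 for Mvd, Idi1, Fdps, Fdft1 and Msmo1, while Tspo (0.82), Me1 (0.64) and Npc2 (0.49) stay high.

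Groups that do not overlap give a further description. In WNT4 against GFP, 7 of 38 members had levels that did not overlap (18.4%), 6 higher (Lss, Cyp51, Ebp, Npc2, Tspo and Me1) and 1 lower (Acaca), against 14.8% of all probe sets and 24.7% of bright genes. It was 1 in Cre against GFP (Acaca), against 6.02% of all probe sets and 6.92% of bright genes. In WNT4 against Cre it was 4 (Cyp51, Ebp, Npc2 and Me1), against 8.23% of all probe sets and 11.3% of bright genes.

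Other genes of the pathways were read from lists that held no member. Of 22 other cholesterol genes 0 passed the test in any comparison, and 4 had an unadjusted p under 0.05 in WNT4 against GFP (18.2%), 2 higher and 2 lower, against 13.0% of all probe sets and 25.0% of bright genes. Scarb1, the HDL receptor that brings cholesteryl esters into ovarian cells, had 12.60, 11.92 and 11.89 on the WNT4 arrays, 11.05, 11.51 and 11.63 on the Cre arrays, and 11.40, 10.92 and 10.78 on the GFP arrays. Its WNT4 levels were separate from both groups, 1.10 ± 0.24 above GFP (limma, adjusted p = 0.178) and 0.74 ± 0.24 above Cre (adjusted p = 0.773). Stard5, a sterol or bile acid carrier, had 10.33, 8.98 and 9.49 on the WNT4 arrays, 7.55, 8.74 and 9.60 on the Cre arrays, and 8.46, 7.01 and 8.18 on the GFP arrays. It was 1.71 ± 0.57 above GFP in the WNT4 group (limma, adjusted p = 0.278), with a wide spread in each group.

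Hsd17b7, a 3-ketosteroid reductase of cholesterol synthesis that also makes oestradiol, ran the other way to the enzymes above. It had 10.60, 10.91 and 9.90 on the WNT4 arrays, 10.02, 11.37 and 10.26 on the Cre arrays, and 11.54, 11.15 and 11.52 on the GFP arrays. The WNT4 levels all lay below GFP, by -0.93 ± 0.36 (limma, adjusted p = 0.332), and the Cre difference was -0.85 ± 0.36 (adjusted p = 1.0). Mylip, the ubiquitin ligase that degrades the LDL receptor, was -0.61 ± 0.27 in WNT4 against GFP (limma, adjusted p = 0.380) and -0.53 ± 0.27 in Cre against GFP. Ggps1, which makes geranylgeranyl diphosphate, had 0.32 ± 0.21 in Cre against GFP. Osbpl2, an oxysterol-binding protein, and Rnf139, a sterol-regulated ubiquitin ligase, had 0.65 ± 0.22 and 0.60 ± 0.26 in WNT4 against Cre (limma, adjusted p = 0.773 and 0.797).

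Of 24 other fatty acid genes 0 passed the test, and 8 had an unadjusted p under 0.05 in WNT4 against GFP (33.3%), all higher, against 13.0% of all probe sets and 25.0% of bright genes, of which 20.8% higher. Lpin1, the phosphatidate phosphatase lipin 1, came closest. It had 10.15, 10.03 and 9.79 on the WNT4 arrays, 9.57, 9.71 and 9.64 on the Cre arrays, and 9.07, 9.15 and 8.74 on the GFP arrays. The 3 groups were fully separate, with differences of 1.00 ± 0.13 in WNT4 against GFP (limma, adjusted p = 0.0774), 0.65 ± 0.13 in Cre against GFP (adjusted p = 1.0) and 0.35 ± 0.13 in WNT4 against Cre (adjusted p = 0.773). Elovl1, a very long chain elongase, had 11.55, 11.46 and 11.47 on the WNT4 arrays, 11.07, 11.16 and 11.02 on the Cre arrays, and 11.11, 11.10 and 11.15 on the GFP arrays. Only the WNT4 arrays were apart, 0.37 ± 0.08 above GFP (limma, adjusted p = 0.174) and 0.41 ± 0.08 above Cre (adjusted p = 0.773). Plin2, a lipid droplet coat protein, had 12.42, 11.97 and 12.08 on the WNT4 arrays, 11.86, 11.78 and 11.60 on the Cre arrays, and 11.61, 11.60 and 11.67 on the GFP arrays. Its WNT4 levels too were above all others, by 0.53 ± 0.13 from GFP (limma, adjusted p = 0.188). Agpat2 and Thrsp, named for their low p in Cre against GFP, had 0.17 ± 0.13 and -0.12 ± 0.10 there, and Thrsp was dim at 5.18 to 5.53.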

How the data were processed

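Gene expression was read on 9 Affymetrix arrays, each with RNA of cultured mouse granulosa cells. The deposited values are log2 levels from RMA, which the submitters' processing notes name without a version. That method removes background, aligns the arrays and sums up each probe set, so array-wide differences are already reduced. They were not absent in the upper range, where the 75th percentile of WNT4 1 lay above the 7.68 to 7.83 of the GFP arrays. Of 45101 probe sets, 64 controls were left out, and 34945 of the 45037 tested had 1 symbol, 932 several and 9160 none here; 34741 symbols were updated by Entrez ID (RefSeq, GRCm38.p6). No pair of arrays had over 4.53% equal values. The number of arrays limits the precision.

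Models were fitted to all 9 arrays in R 4.3.3 with limma 3.58.1 (no covariate, 6 residual and 2.8 prior degrees of freedom, two-sided), with Benjamini-Hochberg adjustment per comparison, after a test on simulated data. Alternatives were the replicate block, the arrays of 2 groups alone, quantile normalization, median and 75th percentile centring, a mean of at least 6, an intensity trend, array weights, averaging the probe sets of each gene, and the loss of each array in turn. Leaving out Cre 3 together with WNT4 3 was decided once the data had been seen.

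Deviations of same-numbered arrays from their group means correlated at 0.21, 0.24 and 0.77 between WNT4 and Cre, at -0.08, 0.01 and 0.35 between WNT4 and GFP, and at -0.04, -0.31 and 0.31 between Cre and GFP. Only between WNT4 and Cre did every same-numbered pair exceed 0.1. However, WNT4 1 correlated more with Cre 2 (0.32) than with Cre 1, and WNT4 2 more with Cre 1 (0.28) than with Cre 2. Deviations from a group mean depend on each other, so the high value of WNT4 3 with Cre 3 also raises those of the other same-numbered pairs. These values therefore do not settle a pairing by number, of which the labels say nothing.

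The members and lists were chosen with earlier results of these data known. Genes described singly were 15 preset genes, the 4 lowest p of the members and the 3 lowest p of each other pathway list per comparison, the last in part by differences alone; Cyp51, Npc2 and Insig2 were added after their values were seen. Array scans were not used here.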

Additional observations from a re-analysis of the deposited data

How the results depend on the processing

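The adjusted test called no member under any setting run, with a lowest adjusted p of 0.066 (without WNT4 2). With the replicate block, 10 probe sets were called in WNT4 against GFP, 0 in Cre against GFP and 0 in WNT4 against Cre; 4 members had an unadjusted p under 0.05 in WNT4 against Cre, with a lowest adjusted p of 0.656, and the block changed no member's call. The 7 probe sets called in WNT4 against GFP became 0 with the arrays of 2 groups alone, 3 after quantile normalization, 17 after 75th percentile centring, 15 among means of at least 6, 1 with an intensity trend, 2 with probe sets averaged, 0 without Cre 3 and WNT4 3, and 0 to 748 with 1 array left out. In Cre against GFP leaving out 1 array gave 0 to 1. The members with an unadjusted p under 0.05 in WNT4 against GFP, 10 in all, numbered 3 after quantile normalization (2 higher, median difference 0.11), 5 without WNT4 1 (4 higher, median 0.12), 15 without WNT4 2, 3 without GFP 2 and 3 without GFP 3, and 6 after 75th percentile centring, under which all probe sets had a median of -0.15. In WNT4 against Cre the 5 became 12 without WNT4 2, 10 without WNT4 3, 2 without Cre 1 and 0 after quantile normalization. With 1 array left out, the SREBP2 median in WNT4 against GFP ran from 0.06 to 0.59, that of SREBP1 from 0.00 to 0.47 (0.01 after quantile normalization), and SREBP2 minus SREBP1 in WNT4 against Cre from -0.05 to 0.27.

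Over the 38 members, uncalled differences had the other sign in 114 of 2163 values under alternatives. In WNT4 against GFP that held for 7 members after quantile normalization (Pmvk, Tm7sf2, Nsdhl, Scap, Fasn, Elovl6 and Fads2), for 4 after 75th percentile centring and for 6 without WNT4 1. In Cre against GFP it held for 12 without Cre 3. Among the 17 members chosen by rule for single description it was 37 of 969 values, given next. After quantile normalization these were Fasn in WNT4 against GFP (-0.08), Abca1 in Cre against GFP (-0.02), and Hmgcs1 (-0.05), Srebf1 (-0.12) and Scd2 (-0.01) in WNT4 against Cre. After 75th percentile centring they were Fasn, Abca1 and Srebf1 in the same comparisons (-0.01 each). With probe sets averaged they were Scd1 in Cre against GFP (0.07) and Acaca in WNT4 against Cre (0.02). Without Cre 3 and WNT4 3 they were Lipe in WNT4 against GFP (0.27), Acaca in WNT4 against Cre (0.02), and Sqle (-0.04), Lss (-0.03), Stard4 (-0.27), Abca1 (-0.16) and Scd2 (-0.11) in Cre against GFP. Over the fits that left out 1 array, the ranges of these 17 that crossed 0 were, in WNT4 against GFP, -0.08 to 0.38 for Fasn and -0.23 to 0.27 for Lipe. In Cre against GFP they were -0.16 to 0.27 for Abca1, -0.36 to 0.21 for Scd1, -0.04 to 0.24 for Sqle, -0.03 to 0.24 for Lss, -0.27 to 0.50 for Stard4 and -0.11 to 0.47 for Scd2. In WNT4 against Cre they were -0.09 to 0.35 for Npc1, -0.05 to 0.73 for Stard4, -0.11 to 0.02 for Acaca, -0.02 to 0.52 for Lipe, -0.01 to 0.25 for Srebf1, -0.02 to 0.44 for Abca1 and -0.01 to 0.60 for Scd2. The cause was not tested.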
